A study of Mus musculus with 24 samples.

Results

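The Cyp3a family of mouse liver, the cytochrome P450 monooxygenases that oxidise a large share of drugs and many steroids, was followed in old and young animals over the day. Its 8 members were taken by gene name: Cyp3a11, Cyp3a13, Cyp3a16, Cyp3a25, Cyp3a41a, Cyp3a41b, Cyp3a44 and Cyp3a59, out of 43629 gene identifiers listed. All livers came from wild type C57BL/6 mice, an inbred strain. The old mice were about 19 months of age and the young mice about 4 months. Sampling was at zeitgeber times (ZT, counted in hours from lights on) 2, 6, 10, 14, 18 and 22, with 2 libraries per age and time, so each age had 12 libraries and the series 24. The series' design text speaks of collection over 2 days. The labels give neither the sex nor whether replicates are separate animals, so each p measures only the spread between these samples, which may be technical.

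CYP3A enzymes sit in the endoplasmic reticulum of hepatocytes and receive electrons from NADPH cytochrome P450 reductase (Por) and cytochrome b5. Their transcription is switched on by the nuclear receptors PXR (Nr1i2) and CAR (Nr1i3), which bind foreign compounds and bile acids and pair with the retinoid X receptor. Cyp3a11 is the main inducible member in mouse liver and is commonly set beside human CYP3A4. In mice, Cyp3a16 is known from fetal and newborn liver, and Cyp3a41a, Cyp3a41b and Cyp3a44 are known as transcripts of adult female liver. Bulk liver RNA cannot tell fewer cells of a type apart from less RNA per cell.

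All members lay on chromosome 5 (GRCm38). Cyp3a16 (ENSMUSG00000038656, chr5:145436309-145469723), Cyp3a41b (ENSMUSG00000075552, chr5:145558675-145584730), Cyp3a41a (ENSMUSG00000075551, chr5:145694060-145720136), Cyp3a44 (ENSMUSG00000054417, chr5:145773983-145805874), Cyp3a11 (ENSMUSG00000056035, chr5:145854426-145879964) and Cyp3a25 (ENSMUSG00000029630, chr5:145977194-146009618) followed one another on the minus strand. Cyp3a59 (ENSMUSG00000061292, chr5:146079258-146113285) came next on the plus strand. Cyp3a13 (ENSMUSG00000029727, chr5:137892932-137921619, minus strand) lay apart from this cluster. Each transcript compared had 13 exons.

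The reads were 50 bases long, so the share of 50-base windows that 2 transcripts hold in common bears on which gene a read can be given to. Of the 1681 windows of the Cyp3a16 transcript, 6.13% were found exactly in Cyp3a11, and the longest identical coding run of this pair was 101 bases across exons 11 and 12. Cyp3a41a and Cyp3a41b differed at 2 of 1512 coding bases, and 98.6% of the Cyp3a41a windows were found in other members. Cyp3a25 and Cyp3a59 were 97.5% identical over the coding sequence, and 25.01% of the Cyp3a25 windows were also in Cyp3a59. Cyp3a13 shared no window with any other gene and was 76.5% identical to Cyp3a11. Exon 12, coding in all members, is shown because it held the fewest Cyp3a16 differences from Cyp3a11 per base (4 of 163). The sequences are from GENCODE M21 on GRCm38, read along each gene, and capitals mark bases that differ from Cyp3a11. They lie at chr5:145858721-145858883 (minus), chr5:145440357-145440519 (minus), chr5:145981384-145981546 (minus), chr5:146109043-146109205 (plus) and chr5:137895183-137895345 (minus), in the order printed.
Cyp3a11 exon 12: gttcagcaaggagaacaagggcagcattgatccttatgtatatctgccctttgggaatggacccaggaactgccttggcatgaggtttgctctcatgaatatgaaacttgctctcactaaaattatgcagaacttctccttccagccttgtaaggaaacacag
Cyp3a16 exon 12: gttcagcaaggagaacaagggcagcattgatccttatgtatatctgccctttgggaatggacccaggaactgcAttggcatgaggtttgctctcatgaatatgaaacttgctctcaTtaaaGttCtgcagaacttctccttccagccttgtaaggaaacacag
Cyp3a25 exon 12: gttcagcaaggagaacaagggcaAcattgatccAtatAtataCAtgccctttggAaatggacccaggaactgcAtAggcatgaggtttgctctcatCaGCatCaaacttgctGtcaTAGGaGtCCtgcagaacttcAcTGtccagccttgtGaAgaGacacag
Cyp3a59 exon 12: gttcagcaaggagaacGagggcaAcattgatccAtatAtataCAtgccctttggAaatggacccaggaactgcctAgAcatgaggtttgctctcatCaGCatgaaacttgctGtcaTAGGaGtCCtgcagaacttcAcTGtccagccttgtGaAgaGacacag
Cyp3a13 exon 12: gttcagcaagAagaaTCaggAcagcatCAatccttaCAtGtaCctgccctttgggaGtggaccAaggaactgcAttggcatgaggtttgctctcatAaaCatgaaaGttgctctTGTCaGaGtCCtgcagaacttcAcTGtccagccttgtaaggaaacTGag

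**Figure D1:**
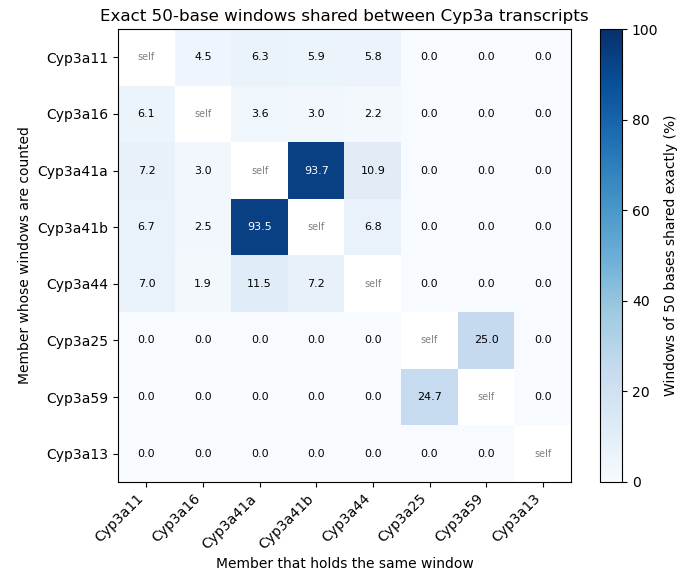
Percent of the 50-base windows of each Cyp3a transcript (rows) that occur exactly in another member (columns), from GENCODE M21 transcripts. Cyp3a41a and Cyp3a41b share over 93% of their windows, Cyp3a25 and Cyp3a59 about 25%, and Cyp3a13 none.

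Values are TPM (transcript abundance, a level per length) after median-of-ratios scaling between libraries. The libraries held 8.70 to 12.3 M reads of 50 bases in old and 9.68 to 13.7 M in young liver, estimated from deposited coverage and FPKM. Albumin stood at 55083 to 78831 scaled TPM in old and 51599 to 80196 in young liver. The Y-linked Ddx3y was at 30.2 to 45.2 in old and 31.7 to 50.7 in young libraries, and Xist reached at most 0.00886 in old and 0.00678 in young. Every library thus held a Y-linked transcript, as male tissue does, though the labels name no sex. A pair of libraries stood apart from the rest. Pancreatic acinar transcripts summed to 4644 scaled TPM in young ZT18 replicate 2, against a median of 47.3 in old and 35.01 in young libraries. Mitochondrial transcripts took 3.42% of TPM in old ZT14 replicate 1, the lowest of the old libraries, which reached 15.4%, while young libraries ran at 11.5% to 17.1%. limma, with Benjamini-Hochberg adjustment over the 12234 genes with a mean of at least 1 scaled TPM, called 139 genes higher (1.14%) and 61 lower (0.499%) in old liver. With deposited TPM left unscaled the split was 225 higher and 38 lower, and with deposited FPKM 194 and 44.

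Of the 8 members, 5 passed the filter and were tested (Cyp3a11, Cyp3a13, Cyp3a16, Cyp3a25 and Cyp3a59), Cyp3a16 through its young libraries. Cyp3a11 was called lower in old over the day, as 0.499% of all genes were, and 0 members were called higher, as 1.14% were. Cyp3a16 also passed the threshold, but nothing is read from that, since it was at 0 in most old libraries and entered the fit through the young ones. The order of levels was Cyp3a11, Cyp3a25, Cyp3a13, Cyp3a59 and Cyp3a16 at both ages. Cyp3a11 ranked 71st of all genes in old and 45th in young liver by mean scaled TPM, and Cyp3a25 308th in old and 263rd in young. The lowest Cyp3a11 library was above the highest Cyp3a25 library at each age, and the lowest Cyp3a25 library was above the highest Cyp3a13 library. Cyp3a13 and Cyp3a59 overlapped at both ages, as did Cyp3a59 and Cyp3a16.

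**Figure D2:**
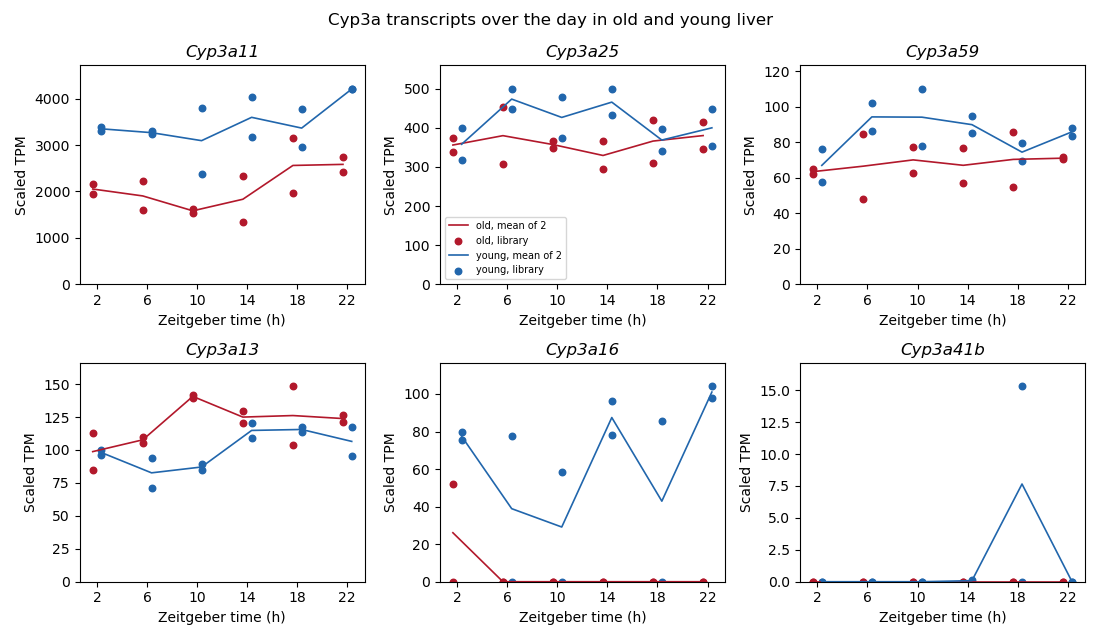
Scaled TPM of 6 Cyp3a members against zeitgeber time, with 1 point per library and lines through the mean of 2 libraries, old in red and young in blue. Cyp3a11 was lower in old at every time, and the line of Cyp3a13 was higher in old, barely so at ZT2 (98.7 against 98.0). On the log2 scale the mean of Cyp3a13 was higher in old at 5 of 6 times. Cyp3a16 was either listed at 0 or between 52.2 and 104 scaled TPM.

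Cyp3a11 fell in old liver. Its level was 1338 at the lowest, 2055 at the median and 3164 at the highest in the 12 old libraries, against 2385, 3351 and 4214 scaled TPM in the 12 young libraries. Only the top of the old range overlapped the bottom of the young range. The mean was 2086 ± 534 in old and 3482 ± 544 scaled TPM in young liver (SD, n = 12 each). The log2 difference, old minus young over the 6 times, was -0.76 (SE 0.119, limma adjusted p = 0.00245), which equals a change of -41.1%. When the age labels were permuted at each time in every possible way (exact, two-sided), p was 8.57e-05 for this gene and 0.0114 after adjustment over all genes tested, where 0.744% of genes were called lower in old. The median coverage of its exons was 675 reads per base in old and 1215 in young libraries.

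Time by time, the Cyp3a11 libraries separated as follows. At ZT2 old liver had 2151 and 1955 scaled TPM and young liver 3314 and 3387. At ZT6 old liver had 1591 and 2217 and young liver 3304 and 3233. At ZT10 old liver had 1545 and 1621 and young liver 2385 and 3807. At each of these times both old libraries lay below both young ones. At ZT14 old liver had 1338 and 2327 and young liver 4030 and 3168. At ZT18 old liver had 1959 and 3164 and young liver 3775 and 2959, the one time at which the ages overlapped. At ZT22 old liver had 2743 and 2425 and young liver 4214 and 4203. The mean was lower in old at 6 of 6 times, which held for 4.83% of the genes tested. Both old libraries were below both young ones at 5 times, and 0.687% of genes did so at 5 or more.

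The family sum followed its main member. The 8 members together made 2641 ± 583 scaled TPM in old and 4146 ± 594 in young liver (SD, n = 12 each), a ratio of 0.637 and a log2 difference of -0.67. These sums have no test, because the members were chosen with results known. The family took 0.275% of all TPM in old and 0.400% in young libraries. Cyp3a11 made up 78.5 ± 3.33% of the sum in old and 83.8 ± 1.91% in young liver, Cyp3a25 14.02 ± 1.99% in old and 10.1 ± 1.62% in young, Cyp3a13 4.73 ± 1.19% in old and 2.47 ± 0.464% in young, and Cyp3a59 2.63 ± 0.430% in old and 2.05 ± 0.364% in young. Summing Cyp3a11 with Cyp3a16, Cyp3a41a, Cyp3a41b and Cyp3a44, the members it shares windows with, gave 2091 ± 535 in old and 3546 ± 563 scaled TPM in young liver, a log2 difference of -0.79. The 7 members other than Cyp3a11 summed to 554 ± 69.8 in old and 665 ± 80.1 in young liver.

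**Figure D3:**
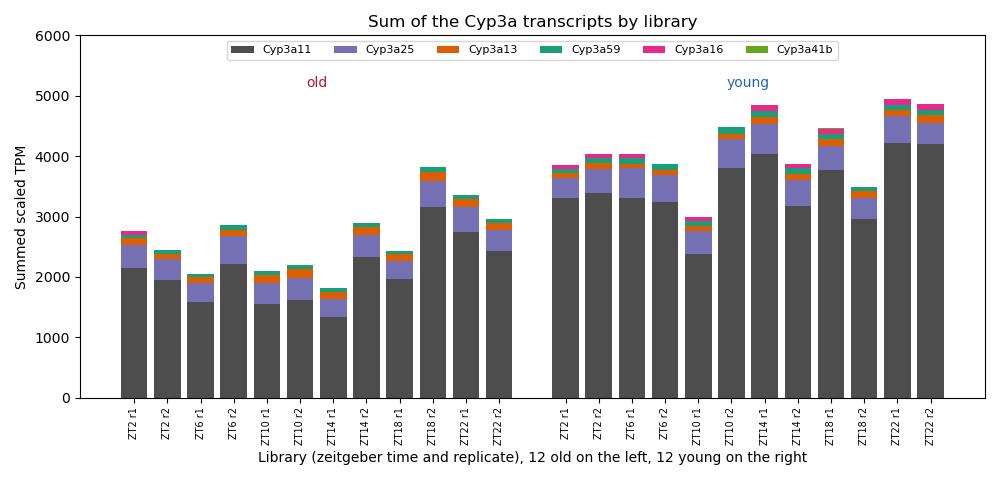
Stacked scaled TPM of the Cyp3a members in each library, 12 old on the left and 12 young on the right, ordered by zeitgeber time and replicate (r1, r2). The old bars reach 1810 to 3819 and the young bars 2984 to 4943 scaled TPM, and Cyp3a11 is the largest block in each.

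Cyp3a16 was above 0 in 1 old and 9 young libraries. In old liver it was 52.2 scaled TPM in ZT2 replicate 1 and listed at 0 in the other 11 libraries. In young liver it was 75.4 and 79.5 at ZT2, 77.8 and 0 at ZT6, 58.3 and 0 at ZT10, 96.5 and 78.4 at ZT14, 85.8 and 0 at ZT18, and 97.9 and 104 at ZT22, with replicate 1 before replicate 2. No library lay between 0 and 52.2, and the 3 young libraries at 0 were all replicate 2. The limma fit gave a log2 difference of -4.97 (SE 1.05, adjusted p = 0.0211), which is listed as a description, since the gene passed the filter through its young libraries. Its size depends on the pseudocount of 0.5 and is no bound. Without ZT14 the adjusted p was 0.130 and without ZT22 it was 0.120. The exact permutation gave p = 0.00116, and 0.0549 after adjustment over all genes.

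Where Cyp3a16 was above 0 it kept a nearly fixed proportion to Cyp3a11. The ratio was 2.43% in the 1 old library, and 2.27% to 2.48% in the 9 young libraries, with a mean of 2.38 ± 0.0759% over the 10 libraries. The libraries at 0 covered most of the Cyp3a11 range, with Cyp3a11 at 1338 to 3164 scaled TPM in the 11 old ones and 2959, 3233 and 3807 in the 3 young ones. Exon 12, printed above, is the exon in which the 2 transcripts are most alike. Over the whole coding sequence they differed at 109 of 1512 bases, and 89.3% of the Cyp3a16 windows were in no other gene. What part shared reads have in the Cyp3a16 values was not tested.

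**Figure D4:**
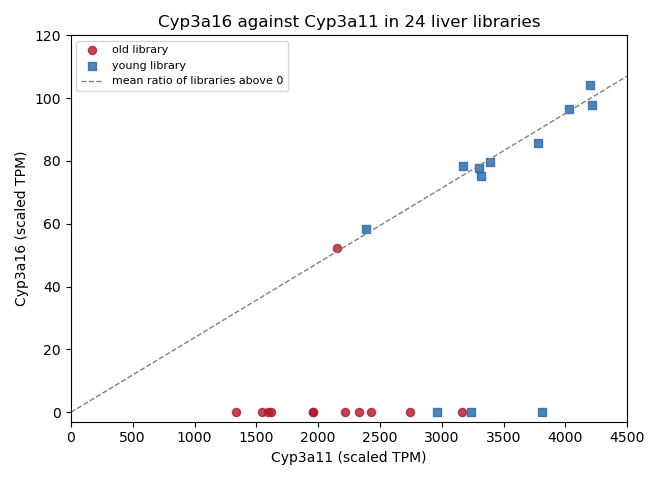
Cyp3a16 against Cyp3a11, both in scaled TPM, in 12 old libraries (red circles) and 12 young libraries (blue squares). The dashed line is the mean ratio of the 10 libraries above 0 (2.38%), which all lie near it, while 11 old and 3 young libraries lie at 0.

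Cyp3a41a and Cyp3a44 were listed at 0 in all 12 old and all 12 young libraries. Cyp3a41b was listed at 0 in all old libraries and in 10 young ones, and had 15.3 scaled TPM in young ZT18 replicate 1 and 0.168 in young ZT14 replicate 2. None of these 3 members entered the fit. With 93.5% of its windows also in Cyp3a41a, a read in most of Cyp3a41b cannot be given to one of the pair.

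Cyp3a13, the member with no shared window, did not pass the test for age. Its level was 84.6 at the lowest, 121 at the median and 148 at the highest in old, against 71.1, 98.0 and 121 scaled TPM in young liver. The 2 ranges overlapped widely, and the means were 120 ± 18.3 in old and 101 ± 15.2 in young (SD, n = 12 each). The log2 difference was 0.25 (SE 0.0760, unadjusted p = 0.00425, limma adjusted p = 0.128). Both old libraries lay above both young ones at 4 times, which held for 2.71% of the genes tested at 4 or more times. At ZT10 old liver had 140 and 142 and young liver 89.7 and 84.5 scaled TPM, a log2 difference of 0.69 (SE 0.186, adjusted p = 0.141). With deposited FPKM in place of scaled TPM the adjusted p over the day was 0.0294.

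Cyp3a25 and Cyp3a59, the pair of close copies at the end of the cluster, were lower on average in old liver without passing the test. Cyp3a25 was 294 at the lowest, 357 at the median and 453 at the highest in old, against 317, 416 and 500 scaled TPM in young liver. Its means were 362 ± 48.5 in old and 416 ± 61.8 in young, a log2 difference of -0.20 (SE 0.0909, limma adjusted p = 0.416). Cyp3a59 ran at 48.2, 67.6 and 85.9 in old, against 57.5, 84.3 and 110.02 scaled TPM in young liver. Its means were 68.0 ± 11.8 in old and 84.2 ± 14.04 in young (log2 -0.31, SE 0.109, adjusted p = 0.228). For both genes the old mean lay below the young mean at each of the 6 times, which held for 4.83% of the genes tested. For Cyp3a25 the log2 difference was only -0.0004 at ZT2 and -0.02 at ZT18. Both old libraries lay below both young ones at 2 times for Cyp3a25. They did so at 4 times for Cyp3a59, and 2.42% of genes did so at 4 or more. At unadjusted p under 0.05, which 11.7% of genes reached, Cyp3a11, Cyp3a25 and Cyp3a59 were lower in old and Cyp3a13 was higher. Cyp3a16 is not counted, since it entered the fit through its young libraries, and Cyp3a25 and Cyp3a59 share windows. Cyp3a59 amounted to 18.8 ± 1.72% of Cyp3a25 in old and 20.3 ± 1.97% in young liver.

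At single times no member passed the adjusted threshold. Of all tested genes, 0.0% did at ZT2, 0.0% at ZT6, 0.531% at ZT10, 0.0409% at ZT14, 0.0245% at ZT18 and 0.00817% at ZT22. For Cyp3a11 the log2 difference was -0.71 at ZT2, -0.80 at ZT6, -0.93 at ZT10, -1.02 at ZT14, -0.42 at ZT18 and -0.71 at ZT22 (SE 0.291 at each). Its unadjusted p was under 0.05 at each time other than ZT18, with 0.00318 at ZT14 as the smallest. Of all genes, 1.91% were lower in old at that level at ZT2, 1.84% at ZT6, 3.29% at ZT10, 4.48% at ZT14 and 1.45% at ZT22. Whether the difference varied over the 6 times was tested directly and was called for no member, while 0.0163% of all genes were called (3.6% at unadjusted p under 0.05). Single libraries moved these values. The ZT10 value was -0.59 without young replicate 2 and -1.27 without young replicate 1. The ZT14 value was -0.62 without old replicate 1, the library low in mitochondrial transcripts, and -1.42 without old replicate 2. The ZT18 value ran from -0.08 without old replicate 1 to -0.77 without old replicate 2. It was -0.25 without young replicate 1 and -0.60 without young replicate 2, the library with acinar transcripts. Leaving out both, the difference over the day was -0.73 for Cyp3a11 (adjusted p = 0.00577).

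**Figure D5:**
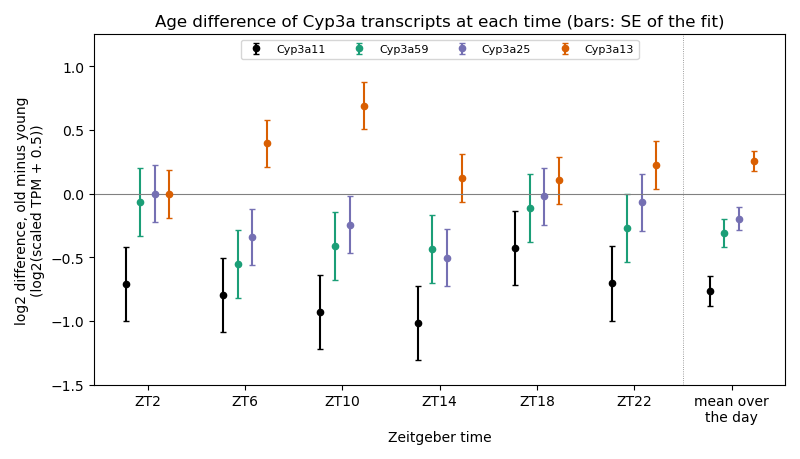
The log2 difference in scaled TPM, old minus young, of Cyp3a11, Cyp3a59, Cyp3a25 and Cyp3a13 at each zeitgeber time and over the day, with bars of 1 SE of the limma fit. Cyp3a11 is lowest at ZT14 (-1.02) and Cyp3a13 highest at ZT10 (0.69), and the SE over the day is smaller than at single times.

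Of the 5 tested members, 1 was called rhythmic. In a cosine fit of 24 h, no member was rhythmic in old liver alone (8.97% of genes were) or in young liver alone (10.8%). On the mean of both ages, where 23.9% of genes were called, Cyp3a13 was called, with a peak at ZT16.5 and a fitted log2 difference between peak and trough of 0.37 (adjusted p = 0.0360). Its means ran 98.7, 108, 141, 125, 126 and 124 scaled TPM over ZT2 to ZT22 in old, and 98.0, 82.6, 87.1, 114.8, 115.6 and 106 in young liver. The Cyp3a13 call was lost when any one of 7 libraries was left out (old ZT2 replicate 2, old ZT6 replicates 1 and 2, old ZT18 replicate 2, young ZT6 replicate 1 and young ZT14 replicates 1 and 2), with adjusted p from 0.0570 to 0.0796. It was also lost with unscaled TPM (0.0893) and quantile normalization (0.115). Cyp3a11 just missed the threshold (adjusted p = 0.0518, peak at ZT21.3, log2 peak to trough 0.50). It passed when any one of 7 libraries was left out (old ZT6 replicate 2, old ZT14 replicates 1 and 2, old ZT18 replicate 1, young ZT10 replicate 2, young ZT14 replicate 1 and young ZT18 replicate 2), with adjusted p from 0.0328 to 0.0428. Without old ZT14 replicate 1 and young ZT18 replicate 2 together, the libraries that stood apart, the adjusted p was 0.0225 for Cyp3a11 and 0.0389 for Cyp3a13. Cyp3a25 (adjusted p = 0.722) and Cyp3a59 (0.655) did not pass. A difference in rhythm between ages was called by limma for no member and for 0.0% of all genes (3.5% at unadjusted p under 0.05).

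No receptor that acts on these genes passed the test for age. Of 25 tested genes of the list of xenobiotic receptors and their partners, 0 were called higher and 0 lower in old. Over all genes 1.14% were called higher and 0.499% lower, so 0 of 25 is near that share. The median log2 difference of the list was 0.02, beside -0.01 over all genes. PXR (Nr1i2) averaged 38.0 ± 9.28 in old and 40.3 ± 6.02 scaled TPM in young liver (log2 -0.10, adjusted p = 0.711). CAR (Nr1i3) averaged 41.5 ± 13.8 in old and 43.0 ± 13.6 in young (log2 -0.06, adjusted p = 0.940). Hnf4a, a factor that sustains hepatocyte P450 expression, averaged 188 ± 32.8 in old and 197 ± 46.9 in young, and the partner receptor Rxra 80.1 ± 20.5 in old and 80.4 ± 26.7 in young. The C/EBP factor Cebpa averaged 163 ± 34.4 in old and 154 ± 19.5 in young, and the bile acid receptor FXR (Nr1h4) 90.9 ± 16.5 in old and 95.9 ± 16.3 in young. Over the day, 11 of the 25 were rhythmic on the mean of both ages, where 23.9% of all genes were, among them CAR (peak ZT14.5, log2 peak to trough 1.001) and PXR (peak ZT14.5, 0.55).

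Of 10 tested genes for the electron donors and the heme supply of P450 enzymes, 0 were called higher and 0 lower in old. This is near the share of all genes (1.14% higher and 0.499% lower). Of the 10, 5 were rhythmic on the mean of both ages (23.9% of all genes). Por averaged 126 ± 85.7 in old and 124 ± 76.6 scaled TPM in young liver and peaked at ZT11.8, with a log2 peak to trough of 2.13. Alas1, the first enzyme of heme synthesis, averaged 148 ± 142 in old and 189 ± 185 in young and peaked at ZT13.0 (3.41). Cyb5a, cytochrome b5, averaged 1318 ± 424 in old and 1248 ± 388 in young. Pgrmc1, a heme-binding partner of P450 enzymes, averaged 809 ± 52.6 in old and 861 ± 64.5 in young, and cytochrome b5 reductase (Cyb5r3) 224 ± 30.8 in old and 224 ± 26.9 in young. The PAR bZIP factors Dbp, Tef and Hlf are clock-driven activators of hepatic detoxification genes, and Nfil3 is their antagonist. They were rhythmic (4 of 4), and 0 of 4 passed the test for age, which is again near the share of all genes. Their fitted log2 peak to trough was 5.84 for Dbp, 2.96 for Tef, 0.79 for Hlf and 1.78 for Nfil3.

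Promoters are printed because Cyp3a25 and Cyp3a59 moved together across libraries and Cyp3a11 is the most abundant member and was lower in old. Pearson r of Cyp3a25 with Cyp3a59 was 0.876 over 24 libraries, 0.862 within old and 0.830 within young. Of the Cyp3a25 windows, 25.01% are also in Cyp3a59, and what part shared reads have in this r was not tested. The 140 bases that begin 250 bases before the RefSeq start (GRCm38.p6) are shown, with the half-sites AGGTCA and AGTTCA in capitals on either strand. PXR and CAR bind pairs of such half-sites. They lie at chr5:145879965-145880104 (minus), chr5:146009729-146009868 (minus), chr5:146079008-146079147 (plus) and chr5:137921730-137921869 (minus), in the order printed.
Cyp3a11 promoter: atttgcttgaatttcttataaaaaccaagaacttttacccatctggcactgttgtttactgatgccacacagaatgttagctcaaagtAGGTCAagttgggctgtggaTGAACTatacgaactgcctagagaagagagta
Cyp3a25 promoter: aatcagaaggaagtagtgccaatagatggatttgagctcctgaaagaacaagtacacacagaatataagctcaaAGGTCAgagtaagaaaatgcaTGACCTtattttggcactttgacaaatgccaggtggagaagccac
Cyp3a59 promoter: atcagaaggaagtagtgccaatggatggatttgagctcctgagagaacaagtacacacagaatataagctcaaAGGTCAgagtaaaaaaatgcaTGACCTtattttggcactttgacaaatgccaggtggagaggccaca
Cyp3a13 promoter: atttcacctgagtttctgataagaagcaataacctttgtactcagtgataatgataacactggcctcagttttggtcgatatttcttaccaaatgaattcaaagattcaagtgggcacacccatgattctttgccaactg

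Cyp3a25 and Cyp3a59 held AGGTCA 2 times each, as 0.423% of 32851 promoter stretches of this length did, and their promoters were 95.6% identical over the aligned bases. Cyp3a11 held AGGTCA 1 time and AGTTCA 1 time, and these occurred in 7.99% and 7.43% of the stretches. Cyp3a13 and Cyp3a16 held neither in this window, Cyp3a44 held AGGTCA 1 time, and Cyp3a41a and Cyp3a41b held AGTTCA 1 time each. The promoter of Cyp3a13 was 51.9% identical to that of Cyp3a11, against 83.3% for Cyp3a16. No match of one motif overlapped a match of the other in the printed stretches. A match describes letters and not a bound site.

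For the list counts that follow, 1.14% of all genes were called higher and 0.499% lower in old. Other drug-metabolising cytochromes P450 gave 0 of 22 tested genes higher and 3 lower in old liver, and their median log2 difference was -0.21. The 3 belong to the Cyp2c subfamily. Cyp2c40 averaged 73.2 ± 11.9 in old and 109 ± 13.5 scaled TPM in young (log2 -0.57, adjusted p = 0.000233), Cyp2c67 256 ± 39.5 in old and 344 ± 31.8 in young (log2 -0.44, adjusted p = 0.00108), and Cyp2c68 156 ± 31.03 in old and 233 ± 38.5 in young (log2 -0.58, adjusted p = 0.00145). These are close copies, so how reads were divided among them is uncertain. Of 32 tested targets of PXR and CAR outside the family, 1 was called higher and 1 lower, and the median was -0.01. Cyp2b9 was the gene called higher, with 8.40 ± 6.75 in old and 0.902 ± 1.44 in young. It passed the filter through its old libraries, so nothing is read from its call. Ces2c, a carboxylesterase, fell, with 22.9 ± 6.35 in old and 37.2 ± 7.49 in young.

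The genes whose log2 levels over the 24 libraries were most like those of Cyp3a11, among 6980 candidates with a mean of at least 5 scaled TPM, were Cyp2c68 (Pearson r = 0.883), Cyp2c40 (0.860), Cyp2c67 (0.857), Creg1 (0.833) and Cyp4a12a (0.788). The points share the age difference. Within old libraries r was 0.640 for Cyp2c68, 0.494 for Cyp2c40, 0.515 for Cyp2c67, 0.844 for Creg1 and 0.788 for Cyp4a12a. Within young libraries it was 0.847, 0.801, 0.856, 0.735 and -0.182 in the same order. Cyp3a13 had r of -0.291 with Cyp3a11 over all libraries, 0.180 within old and 0.261 within young.

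P450 genes of mouse liver differ between the sexes under the pattern of growth hormone release, so lists of both kinds were counted. Of 32 tested male-biased genes, 3 were higher and 6 lower in old liver (1.14% and 0.499% of all genes), and the median log2 difference was -0.23. The smallest p belonged to Cyp4a12b, a fatty acid hydroxylase, with 58.9 ± 11.02 in old and 106 ± 21.7 scaled TPM in young, and to Cyp4a12a with 131 ± 24.3 in old and 219 ± 40.9 in young. Gstp1, a glutathione transferase, was called lower too, with 1006 ± 203 in old and 1524 ± 224 in young. Gstp2 of the same list was at 0 in all young libraries and averaged 96.9 ± 230 in old. How reads were divided between Gstp1 and Gstp2, or between Cyp4a12a and Cyp4a12b, was not tested. Moxd1 was called higher, with 4.42 ± 6.55 in old and 0.162 ± 0.297 in young. It passed the filter through its old libraries, so nothing is read from its call. Of 15 tested female-biased genes, 3 were higher (Cyp2b9, Cyp17a1 and Cd36) and 1 was lower (Cyp2c40). Nothing is read from the Cyp2b9 call, since it passed the filter through its old libraries. The growth hormone receptor Ghr averaged 368 ± 35.9 in old and 380 ± 54.4 in young.

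Some markers of inflammation and of immune cells differed with age beside the Cyp3a11 difference. Of 27 acute phase genes, 6 were higher, beside 1.14% of all genes, and 0 lower in old liver (median log2 0.37), with Lcn2 (log2 2.66), Orm3 (2.003), Steap4 (0.88) and Saa4 (0.48) as the 4 with the smallest p. Their summed level was 26242 to 67181 scaled TPM in old (median 31026) and 23793 to 36937 in young (median 29984). The old library with the highest sum, ZT10 replicate 1, had 1545 scaled TPM of Cyp3a11, and the old library with the lowest sum, ZT2 replicate 2, had 1955. The old library with the least Cyp3a11, ZT14 replicate 1 (1338), had a sum of 29138. The one with the most, ZT18 replicate 2 (3164), had 28846. A relation of this sum to Cyp3a11 was not tested. Of 12 Kupffer cell and macrophage markers 2 were higher in old, Marco and Mpeg1 (list sum 545 to 1437 in old, 479 to 727 in young). Not called were Clec4f (log2 0.005), Timd4 (-0.06) and Vsig4 (0.12), though 11 of the 12 lay above 0. Of 3 tested neutrophil markers 2 were higher, S100a8 and S100a9 (list sum 3.07 to 139 in old, 3.67 to 22.8 in young). Of 5 tested B and plasma cell markers 4 were higher (list sum 126 to 642 in old, 14.3 to 69.5 in young). All 4 were immunoglobulin genes (Ighm, Igkc, Ighg2b and Ighg2c), and Cd79b was not called (log2 0.08, limma adjusted p = 0.953). The neutrophil marker Ly6g was at 0 everywhere. Of 16 hepatocyte, 12 pericentral and 10 periportal markers, 0 passed the threshold in either direction, and the summed pericentral markers, of the zone where CYP3A expression is known to be strongest, ran at 4648 to 7491 in old and 3567 to 7817 in young. Of the other cell type lists, 1 of 2 tested cholangiocyte markers was higher in old (Sox9, 2.29 ± 0.825 in old and 1.56 ± 0.701 in young). In the lists for T and NK cells (1 tested), sinusoidal endothelium (10), stellate cells and fibroblasts (8), pancreatic acinar cells (12) and gut epithelium (2), 0 were called. The part of these markers in the Cyp3a11 result was not tested.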

How the data were processed

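Per the labels, frozen livers gave oligo-dT selected mRNA for strand-specific libraries, read singly over 50 bases, and the submitters' processing notes name HISAT2, StringTie and GRCm38 without versions. TPM as deposited come from the authors' StringTie run and have a fixed sum per library. The deposited FPKM values are per length and depth, and the deposited coverage (signal) values are mean reads per exon base. The largest ratio of coverage to FPKM gave the depth. No read counts were given, so counting error of single values is unknown, and how reads that match several copies were divided is not given in the sources used here.

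TPM were scaled by median-of-ratios over the 13270 genes above 0 in all 24 libraries. log2(scaled TPM + 0.5) of 12234 genes with a mean of at least 1 was fitted with limma 3.58.1 (R 4.3.3, intensity trend) with a mean for each of 12 combinations of age and time (12 residual degrees of freedom), and with a 24 h cosine per age (18). The threshold was an adjusted p under 0.05. Ages were also permuted within times (46656 arrangements). The steps were tested on simulated data. Promoters were aligned with MAFFT 7.526. All 8 members matched a RefSeq promoter.

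The members and lists were chosen with earlier results of these data known. The genes named are all members, the 5 genes most like Cyp3a11, and up to 4 genes per list past the threshold with the smallest p or, for receptors and partners, the highest level. Nr1i2, Nr1i3, Por, Alas1, Ghr, Gstp2, Clec4f, Timd4, Vsig4 and Cd79b were named for their roles, after their values were seen. Sult2a8, Cyp2c23, Adgre1 and Jchain of the lists were not matched. Alternatives were other scalings, pseudocounts and filters, each library or time left out, a replicate block and summed copies. The result of 1 further gene list is not reported here.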

Additional observations from a re-analysis of the deposited data

How the results depend on the processing

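The lower Cyp3a11 level in old liver kept its direction in 24 of 24 fits that left out 1 library (log2 -0.83 to -0.70). It also kept its direction in the 18 other settings run (-0.83 to -0.65). Among these 18, the sum of Cyp3a11 with its related copies had no test, and the rest stayed past the threshold. Of the members tested, 2 passed the threshold for age, Cyp3a11 and Cyp3a16, and nothing is read from the Cyp3a16 call. Only Cyp3a11 passed without ZT14, without ZT22 and with the exact permutation. The exact permutation called 1 member, and 3 with deposited FPKM. The rhythm on the mean of both ages was called for 1 member, for 0 with deposited TPM, 0 with quantile normalization, 2 with a filter at 5 TPM, and 0 to 2 when 1 library was left out. No result run changed direction. A rhythm difference between ages was called for 0 members in the settings run for it, and among all genes for 2 with quantile normalization, 1 with the filter at 5 TPM, 0 to 3 with 1 library left out (3 without old ZT14 replicate 1) and 4 without the 2 libraries that stood apart. With deposited TPM the median log2 age difference of all genes was 0.09, against -0.01 with scaling. The log2 sum of the 8 members ranged from -0.72 to -0.61 with 1 library left out.

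The deviations of replicate 1 from its group mean correlated over 0.1 across genes in 52 of 66 pairs of groups (median 0.185, lowest -0.158). Samples with equal numbers thus shared some variation. The labels do not say what the number marks, and the main fit left it out. With the number as a replicate block, Cyp3a11 passed for age as before, and so did Cyp3a16, from which nothing is read. For the rhythm 2 members passed (Cyp3a11 joined, limma adjusted p = 0.0350). The genes called numbered 218 for higher and 134 for lower levels in old, against 139 and 61.

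At this depth the 2 libraries per time gave Cyp3a11 an SE of 0.291 (log2) at a single time, and its largest difference at a single time (-1.02) did not pass the threshold. For members listed at 0 no floor can be given without read counts.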

Other observations

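Cyp3a57, a gene of the same cluster that is no member here, holds windows in common with Cyp3a25 and Cyp3a59. It was above 0 in 4 old and 3 young libraries of the 12 per age, and reached 5.003 scaled TPM in old and 3.51 in young.

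The genes most like Cyp3a25 over the 24 libraries were Sh3bgrl (r = 0.766), Ttpa, the alpha-tocopherol transfer protein (0.749), and Ugt2b36, a glucuronosyltransferase (0.746). For Cyp3a59 they were Kcmf1 (0.800), Spc25 (0.760) and Arih1 (0.734), and Spc25 also stood among the 5 most like Cyp3a25 (0.730). For Cyp3a13 they were Gda, guanine deaminase (0.713), Hspb8, a small heat shock protein (0.713), and Serinc3 (0.705). None of the 5 genes most like Cyp3a13 was a cytochrome P450. Saa4, an acute phase apolipoprotein, was among them (0.704) and was higher in old liver, at 234 ± 51.6 against 169 ± 45.8 scaled TPM in young (SD, n = 12 each). These correlations share libraries and are descriptions with no p.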
